A study of Mus musculus with 6 samples.

Results

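The genes described here are 45 peroxisome genes of the mouse kidney: 29 enzymes, 11 Pex genes that build the organelle, and 5 transporters and membrane proteins. They were chosen by name from a fixed list, with earlier results of these data known. All 45 were found among the 46095 rows of the count table. RNA was sequenced from 3 kidney samples treated with DHT (dihydrotestosterone, a potent androgen) and from 3 control samples, all on a C57BL/6 background. The strain label names a PCOS mouse, a model of polycystic ovary syndrome, for the control kidneys as well, and only the treatment label tells the groups apart. Dose, duration, route and age are not stated in the labels. Nor do these say whether the 3 samples of a group are 3 mice, and the p-values below cover only the spread among the samples, which may be technical.

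Peroxisomes are single-membrane organelles that shorten very-long-chain and branched fatty acids, oxidise D-amino acids and hydroxy acids, detoxify the hydrogen peroxide that these oxidases release, and carry out the first steps of ether lipid synthesis. In the kidney they are most abundant in the proximal tubule. Their enzymes are made in the cytosol and imported by Pex proteins, and several enzyme genes are known targets of the fatty acid receptor PPAR-alpha.

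Total counts ran from 15054763 to 19331942 per library, and 15367 genes were abundant enough to test. Levels are given as CPM, which scales each library's counts to a fixed total by its TMM-scaled size, and differences as log2 fold changes of DHT over control with the standard error (SE). A gene was called when its edgeR quasi-likelihood p, adjusted over all genes tested, was under 0.05. DHT replicate 2 lay between the groups: for 12 genes raised by androgen in mouse kidney, the median log2 shift from the control mean was 2.38 there, against 4.57 in DHT replicate 1 and 3.98 in DHT replicate 3. Each main result is therefore also given without DHT replicate 2. Of those 12 genes 10 were called higher in these same data (background 1.38%), and the list was chosen with earlier results known. Leaving out the DHT library nearest to the controls favours larger differences in advance, so calls without it are a description and add no support. Markers of the proximal tubule (16 of 16) and the loop of Henle (4 of 4) were abundant enough to test in these libraries, as the kidney label requires. Summed loop of Henle markers were at 3730, 6150 and 10815 CPM in control replicates 1, 2 and 3 and at 3997 to 4960 CPM in DHT. Summed principal cell markers were at 455, 443 and 906 CPM and at 530 to 612 CPM. Both sums were highest in control replicate 3, though Cldn16 and Scnn1g were not. Summed proximal tubule markers were lowest there, at 18431 CPM. Summed macrophage markers were at 101 to 228 CPM in controls and 102 to 356 CPM in DHT, highest in DHT replicate 2, and summed red blood cell markers at 7.82 to 37.5 and 2.89 to 70.3 CPM, also highest there. Summed endothelial markers (411 to 521 and 376 to 691 CPM) were highest in DHT replicate 2 as well. Of 5 fat cell markers, Fabp4 was highest there, at 116 CPM, while Cfd, Adipoq, Plin1 and Cidec were highest in control replicate 2, at 12.036, 2.85, 2.28 and 1.76 CPM. Of the other marker lists, only the adrenal one held genes at 0 in all libraries, Cyp11b1 and Cyp21a1. The adrenal marker Cyp11a1 was at 0, 0.311 and 6.33 CPM in control replicates 1, 2 and 3 and at 0 in all DHT libraries. Star was at 2.15, 2.49 and 2.47 CPM in controls and at 0.817, 2.19 and 0.475 CPM in DHT. The part of these cells in the results below was not tested.

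A few peroxisomal enzymes and a membrane protein were more abundant in DHT kidneys, and the Pex genes had small positive differences that were not called. Of 44 members tested, 4 rose in DHT (background 1.38% of all genes tested) and 0 fell (background 1.46%): Eci2, Pecr, Acaa1a and Pxmp4. Eci2 and Pecr doubled or nearly so, at log2 fold changes of 1.03 and 1.003, while Pxmp4 and Acaa1a rose by 0.79 and 0.53. In 19 members every DHT library lay above every control (background 14.8%), and in 1, Hao2, every DHT library lay below (background 15%). At an unadjusted p under 0.05 by edgeR, 18 members were higher (background 12%) and 1 lower (background 12%). DESeq2 called 12 higher (background 5.56%) and 1 lower (background 5.08%), and limma-voom 2 higher (background 1.0%) and 0 lower (background 1.09%). The calls depended on single libraries, as did those over all genes. Without DHT replicate 2, 14 members were called higher (background 4.72%) and 2 lower (background 3.04%). Only Eci2 was called without control replicate 1 or without control replicate 3, and 0 members were called when control replicate 2 or either of DHT replicates 1 and 3 was left out. Over all genes the calls also ranged down to 0 over the left-out libraries, so this loss is not particular to the members. In whole kidney, more RNA per cell and a larger share of the cells that hold the RNA cannot be told apart.

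**Figure D1:**
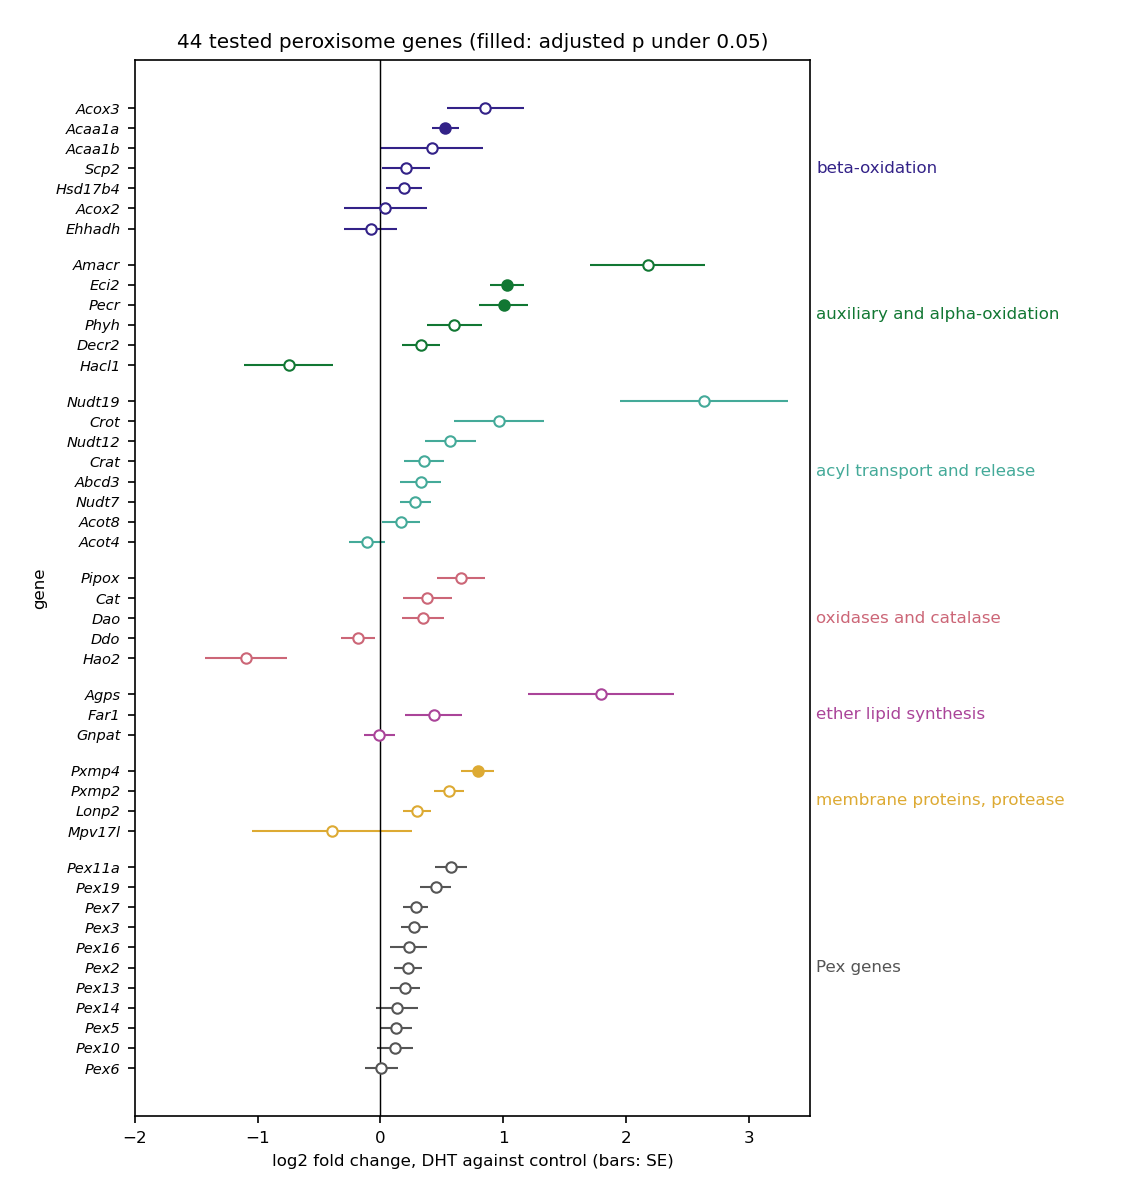
Log2 fold change of DHT over control (x axis) for the 44 tested peroxisome genes (y axis), grouped by role, with bars for the SE. Filled points passed an adjusted p of 0.05. The Pex genes lie between 0.008 and 0.577, and the enzymes between -1.095 and 2.637.

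The enzymes that prepare or bypass difficult positions of a fatty acid chain held 2 of the 4 calls, among 6 members (background 1.38%). Eci2 (chromosome 13, 34977748 to 35027096, minus strand, GRCm38), an isomerase that moves the double bond of unsaturated chains, stood at 59.6, 69.9 and 63.5 CPM in control replicates 1, 2 and 3 and at 142, 110 and 142 CPM in DHT replicates 1, 2 and 3. The groups did not overlap, and the lowest DHT library was replicate 2. Its log2 fold change was 1.03 ± 0.14 (SE; edgeR adjusted p = 0.0162). The call of Eci2 ended when control replicate 2 (0.0782) or DHT replicate 1 or 3 (0.0646 and 0.0943) was left out. The transcript of Eci2 is 91.8% identical to that of its neighbour Eci3 over 51.0% of its length, so reads of the pair may be split. Eci3 itself was at 182 ± 40.1 CPM in control and 218 ± 13.9 CPM in DHT (SD, n = 3), with a log2 fold change of 0.26 ± 0.17 (edgeR adjusted p = 0.39).

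Pecr (chromosome 1, 72259167 to 72284314, minus strand), a reductase of trans-enoyl-CoA, stood at 181, 192 and 161 CPM in controls and at 418, 252 and 400 CPM in DHT. All DHT libraries were above all controls, with replicate 2 the lowest of them. The log2 fold change of Pecr was 1.003 ± 0.20 (edgeR adjusted p = 0.0418). Among the runs with 1 library left out, that call held only without DHT replicate 2. Leaving out control replicate 1, 2 or 3 gave adjusted p-values of 0.0716, 0.14 and 0.101, and leaving out DHT replicate 1 or 3 gave 0.124 and 0.1525. With all libraries DESeq2 called Pecr (adjusted p = 0.000102) and limma-voom did not (0.0502).

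Amacr, the racemase that turns branched-chain acyl-CoA and bile acid intermediates into the form the oxidases accept, had a larger difference but a wider spread. It stood at 77.8, 87.4 and 69.2 CPM in controls and at 513, 131 and 416 CPM in DHT. The groups did not overlap, yet DHT replicate 2 was much closer to the controls than to its own group. Amacr missed the threshold with all libraries (log2 fold change 2.18 ± 0.47, edgeR adjusted p = 0.0607). It was called without DHT replicate 2 (2.56 ± 0.16, adjusted p = 0.00016) and by DESeq2 (0.00249).

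The alpha-oxidation enzymes, which take a single carbon off branched chains such as phytanic acid, did not move together. Phyh, the hydroxylase of the pathway, was at 474, 439 and 329 CPM in controls and at 732, 455 and 697 CPM in DHT. Hacl1, the lyase that follows it, was at 134, 140 and 113 CPM in controls and at 45, 126 and 59.2 CPM in DHT. For both genes DHT replicate 2 lay inside the control range, and the other DHT libraries lay outside it on opposite sides. Neither passed with all libraries (log2 fold change 0.60 ± 0.22 for Phyh and -0.75 ± 0.36 for Hacl1, edgeR adjusted p = 0.148 and 0.26). Without DHT replicate 2 both were called, Phyh higher (0.78 ± 0.18, adjusted p = 0.0413) and Hacl1 lower (-1.32 ± 0.17, adjusted p = 0.00456). With all libraries DESeq2 called neither Phyh nor Hacl1. A read-through gene model on the same strand, Gm49387, shares 31.1% of the exonic bases of Hacl1, so its value is uncertain. Decr2, a dienoyl-CoA reductase, had a log2 fold change of 0.33 ± 0.15 and was not called (edgeR adjusted p = 0.225). Phyh and Hacl1 were added after their values were seen.

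In the core cycle of beta-oxidation 1 of 7 members rose (background 1.38%) and 0 fell (background 1.46%), and at an unadjusted p under 0.05 by edgeR 2 were higher and 0 lower (background 12% each way). Acaa1a (chromosome 9, 119339676 to 119350299, plus strand), a thiolase that cuts off acetyl-CoA in the last step, stood at 82.0, 77.9 and 92.4 CPM in controls and at 120, 123 and 121 CPM in DHT. The 3 DHT libraries were close to each other, DHT replicate 2 included, and all were above the controls. Its log2 fold change was 0.53 ± 0.11 (edgeR adjusted p = 0.0465). The call of Acaa1a was lost with total-count scaling (0.126) and with limma-voom (0.0502). Leaving out control replicate 1, 2 or 3 gave adjusted p-values of 0.101, 0.17 and 0.0716, and leaving out DHT replicate 1 or 3 gave 0.129 and 0.139.

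Its paralog Acaa1b behaved otherwise, with 216, 279 and 210 CPM in controls and 190, 553 and 200 CPM in DHT. Here DHT replicate 2 alone was high, and the other DHT libraries were below every control. The transcripts of Acaa1a and Acaa1b are 96.6% identical over 81.0% of Acaa1a, so the division of reads between them is uncertain.

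The oxidases that open the cycle differed from each other. Acox3, which acts on branched chains, was at 186, 184 and 126 CPM in controls and at 366, 167 and 364 CPM in DHT. The groups overlapped through DHT replicate 2, and the log2 fold change of 0.86 ± 0.31 was not called (edgeR adjusted p = 0.151). Without that library it was 1.14 ± 0.18 (adjusted p = 0.0123), and DESeq2 called it with all libraries. Acox2, which acts on bile acid intermediates and branched chains, had a log2 fold change of 0.04 ± 0.34. The middle steps, catalysed by the bifunctional enzymes, were close to 0: Ehhadh had -0.08 ± 0.22 and Hsd17b4 0.19 ± 0.15. Hsd17b4 stood at 277, 284 and 215 CPM in controls and at 294, 300 and 294 CPM in DHT, which did not overlap, and was not called (edgeR adjusted p = 0.445). Scp2, the sterol carrier that also holds a thiolase, had 0.21 ± 0.19.

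Among genes of acyl transport, acyl release and nucleotide hydrolysis, 0 of 8 tested were called by edgeR (background 1.38% higher and 1.46% lower), and 3 were higher at an unadjusted p under 0.05 (background 12%). Nudt19, a hydrolase that degrades coenzyme A in kidney peroxisomes, had the largest log2 fold change of the 44 tested members. It stood at 135, 312 and 249 CPM in controls and at 2033, 364 and 1935 CPM in DHT. DHT replicates 1 and 3 were at least 6.19-fold above the highest control, while DHT replicate 2 was just above it. The log2 fold change was 2.64 ± 0.69 with all libraries (edgeR adjusted p = 0.0892) and 3.09 ± 0.33 without DHT replicate 2 (adjusted p = 0.00324). DESeq2 called it (0.00949). With no low-count filter it was not called (edgeR adjusted p = 0.237). Of 14 alternative settings at the 0.05 threshold, 2 called Nudt19. An antisense gene model, B230322F03Rik, covers 35.0% of the exonic bases of Nudt19. As no source used here states the strand setting, reads of the overlap cannot be told apart.

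Crot, the carnitine octanoyltransferase that lets medium-chain products leave for mitochondria, was at 161, 278 and 193 CPM in controls and at 559, 212 and 463 CPM in DHT. Again DHT replicate 2 fell inside the control range. Crot was not called with all libraries (0.97 ± 0.36, edgeR adjusted p = 0.166), and was called without DHT replicate 2 (1.27 ± 0.23, adjusted p = 0.0191) and by DESeq2. Nudt12, a hydrolase of NADH, was at 57.7, 62.8 and 43.3 CPM in controls and at 105, 63.4 and 75 CPM in DHT (0.57 ± 0.21, edgeR adjusted p = 0.149). The acetyl transferase Crat had a log2 fold change of 0.36 ± 0.16, the coenzyme A hydrolase Nudt7 0.28 ± 0.13, and the importer Abcd3 0.33 ± 0.17. The thioesterases Acot8 and Acot4 had 0.17 ± 0.15 and -0.11 ± 0.15. None of these 5 was called. The importer Abcd2 had 4 to 19 counts per library and was too low to test.

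**Figure D2:**
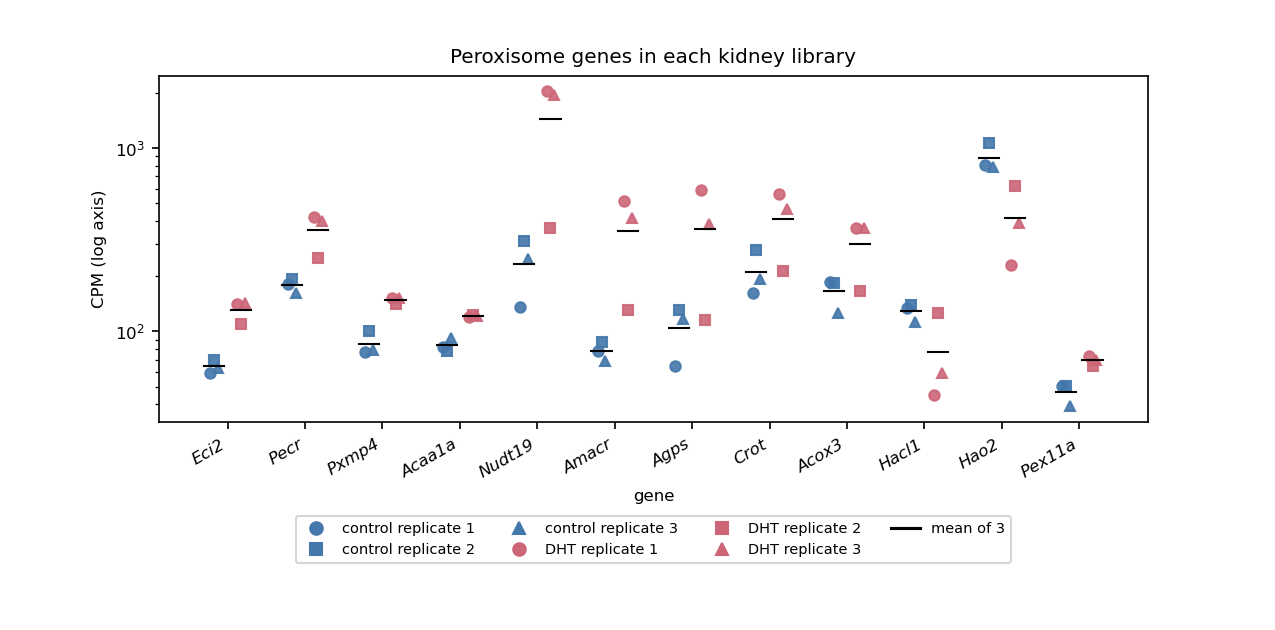
CPM (y axis, log scale) of 12 peroxisome genes (x axis) in each library, with control in blue, DHT in red, a symbol for each replicate number and a black line for the mean of 3. DHT replicate 2 (red square) stands near the controls for Nudt19, Amacr, Agps, Crot, Acox3 and Hacl1, and with its own group for Acaa1a and Pxmp4.

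The oxidases of hydroxy acids and amino acids went in different directions. Hao2, which oxidises long-chain 2-hydroxy acids, was at 803, 1058 and 783 CPM in controls and at 230, 620 and 387.5 CPM in DHT. All DHT libraries were below all controls, with DHT replicate 2 the highest of the DHT group. Its log2 fold change of -1.09 ± 0.34, the most negative of the 44 tested members, did not pass (edgeR adjusted p = 0.106). Hao2 was called lower without DHT replicate 2 (-1.52 ± 0.26, adjusted p = 0.016) and by DESeq2 (0.00755).

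Pipox, which oxidises sarcosine and pipecolic acid, was at 295, 305 and 205 CPM in controls and at 453, 347 and 471 CPM in DHT (0.66 ± 0.20, edgeR adjusted p = 0.0946). Dao, the D-amino acid oxidase, was at 228, 258 and 198 CPM in controls and at 307, 231 and 331 CPM in DHT (0.35 ± 0.17, edgeR adjusted p = 0.263). The groups of Pipox did not overlap, while those of Dao did. Pipox was called without DHT replicate 2 (adjusted p = 0.0447), by DESeq2 (0.0162) and with no low-count filter (0.0484). Ddo, which oxidises D-aspartate, had -0.18 ± 0.14. Cat, the catalase that removes the hydrogen peroxide made by these oxidases, was at 953 ± 225 CPM in control and 1242 ± 37.7 CPM in DHT (SD, n = 3). The groups of Cat did not overlap, and its log2 fold change of 0.38 ± 0.20 was not called (edgeR adjusted p = 0.284).

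Of the 3 ether lipid genes 0 were called by edgeR (background 1.38% higher and 1.46% lower), and Agps had an unadjusted p under 0.05 (background 12%). Agps, the synthase that puts the ether bond in place, was at 64.9, 131 and 117 CPM in controls and at 587, 115 and 386 CPM in DHT. DHT replicate 2 lay inside the control range. Its log2 fold change was 1.80 ± 0.60 with all libraries (edgeR adjusted p = 0.141) and 2.21 ± 0.32 without DHT replicate 2 (adjusted p = 0.0144). With all libraries DESeq2 did not call Agps (adjusted p = 0.068), nor did edgeR with no low-count filter (0.336). Of 14 alternative settings at the 0.05 threshold, only 1, that without DHT replicate 2, called Agps. Gnpat, the acyltransferase of the preceding step, was at 87.3, 89.2 and 89.7 CPM in controls and at 91.3, 74.5 and 98.8 CPM in DHT (-0.01 ± 0.13, edgeR adjusted p = 0.97). Far1, the reductase that supplies the fatty alcohol, was at 185, 260 and 188 CPM in controls and at 373, 207 and 275.5 CPM in DHT (0.43 ± 0.23, edgeR adjusted p = 0.292). The log2 fold changes of these 3 genes were unequal, but none was called with all libraries and the differences between the genes were not tested.

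Agps and Hao2 are shown with the 250 bases before their RefSeq start sites, since their levels differed in opposite directions in DHT replicates 1 and 3. The Agps window lies at chr2:75831927-75832176 on the plus strand and the Hao2 window at chr3:98893231-98893480 on the minus strand (GRCm38.p6). Capitals mark matches on either strand to the GC box GGGCGG, the CCAAT box CCAAT or a loose form of the D-box, TTATGNAA, where N is any base.
Agps: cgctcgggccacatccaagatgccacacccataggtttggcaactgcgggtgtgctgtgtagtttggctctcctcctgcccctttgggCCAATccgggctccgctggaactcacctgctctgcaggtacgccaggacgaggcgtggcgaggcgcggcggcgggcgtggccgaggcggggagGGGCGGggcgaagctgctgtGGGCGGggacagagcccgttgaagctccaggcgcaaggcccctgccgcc
Hao2: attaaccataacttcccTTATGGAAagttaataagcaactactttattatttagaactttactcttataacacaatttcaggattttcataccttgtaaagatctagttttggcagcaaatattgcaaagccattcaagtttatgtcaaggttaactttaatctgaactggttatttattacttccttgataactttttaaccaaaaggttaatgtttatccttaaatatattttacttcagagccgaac
The Agps window is 70.0% G and C and holds 2 GC boxes and 1 CCAAT box. The Hao2 window is 28.4% G and C and holds none of these, but 1 match to the loose D-box form, TTATGGAA. Over the windows from 250 bases before to 50 bases after the start, 35.7% of all 32851 RefSeq windows held a GC box, 37.4% a CCAAT box and 3.38% a D-box. Of the 45 windows that matched 36 of the members, 28 held a GC box, 20 a CCAAT box and 1 a D-box. A loose form of the DR1 element, the direct repeat known to bind PPAR-alpha, was in 0 of the 45 and in 0.381% of all windows, and a loose form of the androgen response element in 0 and 0.475%. With 45 short windows, counts of 0 are near these shares and do not show that such sites are absent. These motifs were searched on both strands, and matches of different motifs may overlap. A match is a description of the letters and not a bound site.

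Membrane proteins held the remaining call. Pxmp4 (chromosome 2, 154585758 to 154603708, minus strand), a small integral membrane protein of the peroxisome, was at 77.2, 100 and 79.3 CPM in controls and at 151, 141 and 153 CPM in DHT. The groups did not overlap, and DHT replicate 2 was close to the other DHT libraries. Its log2 fold change was 0.79 ± 0.13 (edgeR adjusted p = 0.0309). For Pxmp4, leaving out control replicate 1, 2 or 3 gave adjusted p-values of 0.0541, 0.0749 and 0.0796, and leaving out DHT replicate 1 or 3 gave 0.0931 and 0.118, so the call was lost in each.

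Pxmp2, a channel of the peroxisomal membrane, was at 40.5, 49.0 and 43.8 CPM in controls and at 63.8, 59.6 and 73.1 CPM in DHT. It had no overlap and just missed the threshold (0.56 ± 0.13, edgeR adjusted p = 0.0531). Without DHT replicate 2 its adjusted p was 0.0323, by DESeq2 0.00733 and with no low-count filter 0.0276. Lonp2, the protease of the matrix, was at 122, 114 and 110 CPM in controls and at 153, 135 and 136 CPM in DHT (0.30 ± 0.11, edgeR adjusted p = 0.16). Mpv17l, another membrane protein, was at 286, 1493 and 669 CPM in controls and at 815, 289 and 753 CPM in DHT. Its control libraries alone spanned the whole range of the DHT libraries, and its log2 fold change of -0.40 ± 0.65 was not called.

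The Pex genes were compared with the enzymes as the design of the list implies. All 11 Pex genes had a positive log2 fold change, from 0.008 for Pex6 to 0.577 for Pex11a, with a median of 0.226. With total-count scaling, which lowered the median gene by 0.11 log2, 10 were positive and Pex6 was negative. The 29 enzymes had a median of 0.357 but ran from -1.095 to 2.637, with 23 positive and 6 negative, against a median of 0.003 over all genes tested. An absolute log2 fold change over 0.5 was found in 13 enzymes (44.8%) and 1 Pex gene (9.09%), against 25.7% of all genes tested. By edgeR 3 enzymes and 0 Pex genes were called higher (background 1.38%), and with 11 Pex genes a count of 0 is near the background. In 11 of 29 enzymes and 5 of 11 Pex genes all DHT libraries were above all controls (background 14.8%), so on that count the Pex genes were not behind the enzymes. At an unadjusted p under 0.05 edgeR had 12 enzymes and 4 Pex genes higher (background 12%), and 1 enzyme and 0 Pex genes lower (background 12%). DESeq2 called 8 enzymes and 2 Pex genes higher (background 5.56%) and 1 enzyme lower (background 5.08%), and limma-voom 1 enzyme and 0 Pex genes higher (background 1.0%). The difference between the classes was described and not tested.

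Pex11a, which elongates and divides peroxisomes, was at 50.7, 50.1 and 39.0 CPM in controls and at 73.7, 65.1 and 69.8 CPM in DHT. Pex19, the chaperone that brings membrane proteins to the organelle, was at 95.3, 106 and 101 CPM in controls and at 150, 118 and 145 CPM in DHT. For both genes the groups did not overlap and DHT replicate 2 was the lowest DHT library. With all libraries neither passed (0.58 ± 0.13 and 0.45 ± 0.13, edgeR adjusted p = 0.0546 and 0.0873). Without DHT replicate 2 both did (adjusted p = 0.0397 for Pex11a and 0.0331 for Pex19), as they did by DESeq2 (0.00741 and 0.0283). With no low-count filter edgeR also called Pex11a (adjusted p = 0.0253) but not Pex19 (0.0888).

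Pex7, the receptor for an amino-terminal import signal that thiolase, Phyh and Agps are known to carry, was at 58.5, 64.4 and 56.1 CPM in controls and at 73.5, 73.0 and 72 CPM in DHT (0.29 ± 0.10, edgeR adjusted p = 0.143). Its groups did not overlap, but the difference was small beside that of Agps. Pex5, the receptor for the more common carboxy-terminal signal, had 0.13 ± 0.12. The docking proteins Pex13 and Pex14 had 0.20 ± 0.12 and 0.14 ± 0.17, and the ring-finger ubiquitin ligases Pex2 and Pex10 had 0.23 ± 0.11 and 0.12 ± 0.15. Pex3 and Pex16, which act with Pex19 in membrane assembly, had 0.28 ± 0.11 and 0.23 ± 0.15. Pex6, an ATPase that pulls receptors back out of the membrane, was at 57.6, 72.5 and 73.2 CPM in controls and at 64.5, 62.8 and 77.2 CPM in DHT (0.01 ± 0.14, edgeR adjusted p = 0.977). None of these 9 was called by edgeR with all libraries.

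**Figure D3:**
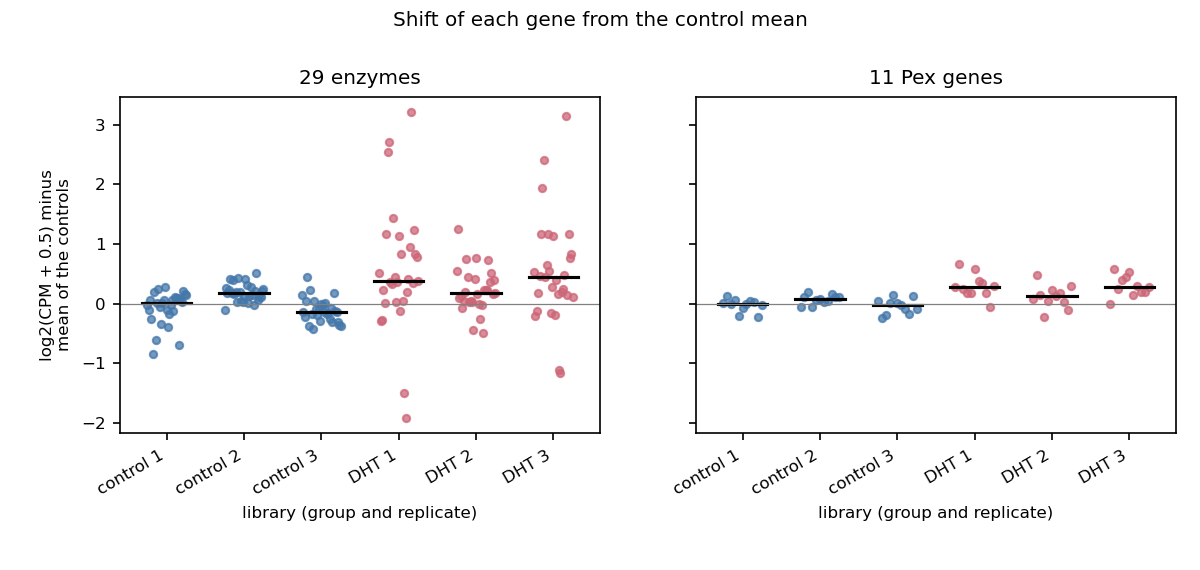
Difference between log2(CPM + 0.5) in a library and the mean of the 3 controls (y axis), 1 point per gene, for 29 enzymes and 11 Pex genes in each library (x axis), with a black line for the median. The enzymes spread from -1.921 to 3.212 in DHT replicate 1 and from -0.493 to 1.245 in DHT replicate 2, while the Pex genes stay between -0.243 and 0.665 in all 6 libraries.

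The libraries showed how uneven the enzymes were. Per library, the shift of a gene is its log2(CPM + 0.5) minus the mean of the controls. The median shift of the 29 enzymes was 0.386, 0.184 and 0.438 in DHT replicates 1, 2 and 3, against 0.009, 0.179 and -0.149 in control replicates 1, 2 and 3, so that DHT replicate 2 was level with control replicate 2. The median of the 11 Pex genes was 0.272, 0.125 and 0.27 in DHT and -0.007, 0.073 and -0.026 in controls. DHT replicate 1 and DHT replicate 3 each had 9 members more than 1 log2 unit from the control mean, and these were the same 9 enzymes: Nudt19, Amacr, Agps, Crot, Pecr, Acox3 and Eci2 above, and Hao2 and Hacl1 below. In DHT replicate 2 all 9 were nearer to the control mean than in the others. There, 2 other members were that far away, Acaa1b at 1.24 and Mpv17l at -1.19.

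The 9 enzymes differed in how far DHT replicate 2 followed. The shift of Eci2 was 1.14, 0.77 and 1.14 in DHT replicates 1, 2 and 3, and that of Pecr 1.23, 0.50 and 1.17. Nudt19 had 3.21, 0.73 and 3.14, and Amacr 2.71, 0.75 and 2.41. In Agps (2.55, 0.20 and 1.95), Crot (1.44, 0.05 and 1.17), Acox3 (1.17, 0.04 and 1.16) and Hacl1 (-1.50, -0.03 and -1.11), DHT replicate 2 stood at or near the control mean. Hao2 had -1.92, -0.49 and -1.17. Summed markers of the straight proximal tubule, the last segment of that tubule, were also high in DHT replicates 1 and 3 alone, at 503.5, 1166.5 and 1028.5 CPM in controls and at 3496.8, 814 and 3227.8 CPM in DHT replicates 1, 2 and 3. Most of that sum was Atp11a (2037 and 1834 CPM in DHT replicates 1 and 3), Slc7a13 and Slc5a8. The 7 markers did not move together: 4 had a positive log2 fold change and 3 a negative one (Slc22a13 -1.02, Slc5a10 -0.16 and Slc5a11 -0.14). Only Slc7a13, which is itself raised by androgen, was called (background 1.38%). Summed markers of the whole proximal tubule were at 18431 to 28620 CPM in controls and at 21490 to 26950 CPM in DHT. Of these 16 markers 0 were called by edgeR (background 1.38% higher and 1.46% lower). At an unadjusted p under 0.05 by edgeR 1 was higher and 2 were lower (background 12% each way). With 16 genes these counts are near the background. The part of these segments in the enzyme values was not tested.

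Clock genes also differed between the groups in these libraries: of 17, 5 were called higher (background 1.38%) and 3 lower (background 1.46%), with median shifts of 0.70, 0.87 and 0.91 in DHT replicates 1, 2 and 3. The list held 13 genes with a positive and 4 with a negative log2 fold change, so these medians do not describe each gene. The labels do not give the hour of collection, and its part in the peroxisome values was not tested.

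Levels between genes were compared per kilobase of exon. In controls the highest of the 45 was Hao2, at 430 CPM per kb, followed by Cat at 365 and Phyh at 219. In DHT the highest was Nudt19, at 539 CPM per kb, followed by Cat at 475 and Phyh at 332. Nudt19 had rank 10 in controls, at 86.6 CPM per kb, and Hao2 had rank 6 in DHT, at 201. The first place of Nudt19 held in DHT replicates 1 and 3, at 759 and 722 CPM per kb. In DHT replicate 2 it had rank 9, at 136 CPM per kb, with Cat first at 484 and Hao2 next at 303. Per length, the Pex genes ran from 3.15 CPM per kb for Pex14 to 26.4 for Pex19 in controls, and the enzymes from 3.797 for Nudt7 to 430 for Hao2, so the classes overlapped at the low end. The 45 genes together took 0.811% to 1.045% of counts in controls and 0.994% to 1.23% in DHT, ranges that overlapped.

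**Figure D4:**
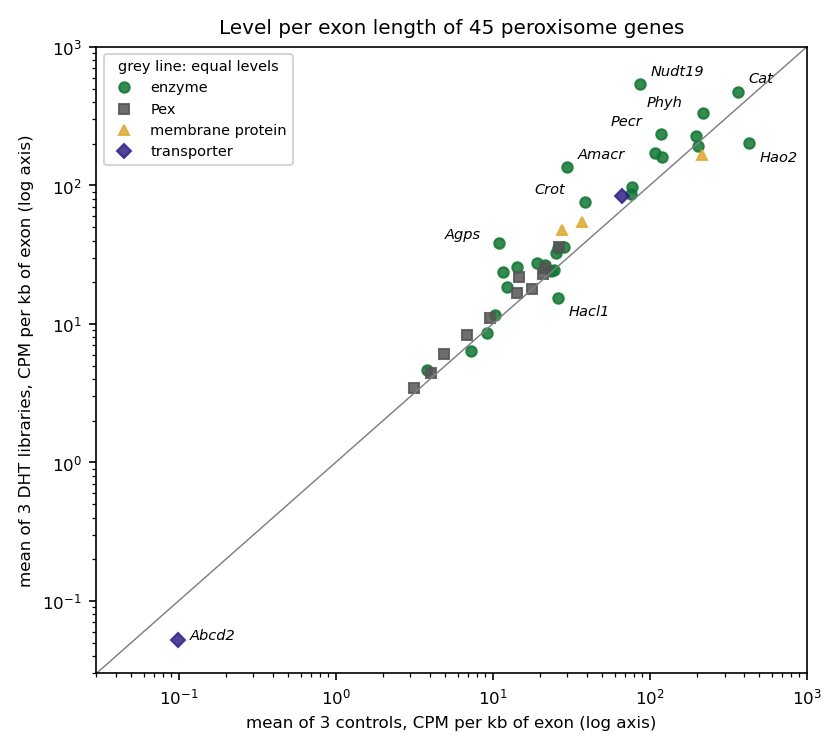
Mean level per kilobase of exon in the 3 DHT libraries (y axis, log scale) against the 3 controls (x axis, log scale) for 45 peroxisome genes, with symbols for enzymes, Pex genes, membrane proteins and transporters. Nudt19, Amacr and Agps lie farthest above the line of equal levels among the tested genes, and Hao2 and Hacl1 below it.

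Other genes of the organelle were taken from a list of 47 found in the table, of which 42 were tested. Among them 1 rose, Mlycd (background 1.38%), and 0 fell (background 1.46%) by edgeR, with 17 higher and 2 lower at an unadjusted p under 0.05 (background 12% each way). All DHT libraries were above all controls in 18 (background 14.8%) and below in 4 (background 15%), and the median log2 fold change was 0.231. The single call and the 4 lower genes are near the background. Mlycd, which decarboxylates malonyl-CoA, was at 38.9, 40.2 and 39.2 CPM in controls and at 78.5, 56.2 and 88.9 CPM in DHT (0.92 ± 0.16, edgeR adjusted p = 0.0345). The call of Mlycd was lost when control replicate 1, 2 or 3 was left out (0.0544, 0.132 and 0.0865), and when DHT replicate 1 or 3 was (0.104 and 0.125).

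Ephx2, the soluble epoxide hydrolase, was at 253, 231 and 163 CPM in controls and at 809, 335 and 763 CPM in DHT (1.56 ± 0.34, edgeR adjusted p = 0.055). Acot12, an acetyl-CoA thioesterase, was at 88.2, 118 and 75.8 CPM in controls and at 387, 150 and 285 CPM in DHT (1.55 ± 0.34, edgeR adjusted p = 0.0594). Acsl1, which activates long-chain fatty acids, was at 596, 737 and 539 CPM in controls and at 120, 352 and 167 CPM in DHT (-1.55 ± 0.38, edgeR adjusted p = 0.0696). Dhrs4, a carbonyl reductase, was at 174, 169 and 144 CPM in controls and at 272, 202 and 254 CPM in DHT (0.58 ± 0.15, edgeR adjusted p = 0.0712). In all 4 the groups did not overlap and DHT replicate 2 was the DHT library nearest to the controls. Without that library all 4 were called (adjusted p = 0.00264 for Ephx2, 0.00349 for Acot12, 0.00222 for Acsl1 and 0.0255 for Dhrs4). The background there was 4.72% higher and 3.04% lower. As these 4 were named for small p-values with all libraries, such calls were favoured in advance and add no support.

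PPAR-alpha, its cofactors and its targets outside the peroxisome showed no common direction as a list. Of 19 tested, 10 had a positive and 9 a negative log2 fold change, with a median of 0.187. By edgeR 1 was called higher (background 1.38%) and 1 lower (background 1.46%). At an unadjusted p under 0.05 by edgeR 5 were higher and 2 lower (background 12% each way). Those 5 were all targets, and the 2 lower were the coactivators Ppargc1a and Ppargc1b. Ppara itself was at 187, 129 and 92.6 CPM in controls and at 139, 169 and 201 CPM in DHT, which overlapped (0.32 ± 0.25, edgeR adjusted p = 0.476). Plin2, the lipid droplet coat, was higher in every DHT library (0.85 ± 0.11, adjusted p = 0.0142), and the coactivator Ppargc1a lower in every one (-0.53 ± 0.11, adjusted p = 0.0491). The coactivator Ppargc1b had -0.62 ± 0.15 and Cpt2, which acts in mitochondria, 0.51 ± 0.13 (edgeR adjusted p = 0.0595 and 0.0693). The calls of Plin2 and Ppargc1a were lost without control replicate 2 (0.0793 and 0.151), DHT replicate 1 (0.0543 and 0.119) or DHT replicate 3 (0.0943 and 0.144). For Ppargc1a, leaving out control replicate 1 or 3 (0.0754 and 0.0968) or DHT replicate 2 (0.0519) ended the call too.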

How the data were processed

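RNA was measured in 6 mouse kidney libraries. The authors deposited raw counts per gene symbol, whole numbers with no normalization, in 46095 rows. HISAT2 2.0 and the build mm10 are named in the submitters' processing notes; no source used here names the counter, the annotation or the strand setting. Columns were matched to samples by title. Genes were kept by filterByExpr (minimum count 10, minimum total 15), scaled by TMM and tested in edgeR 4.0.16 (R 4.3.3) with a robust quasi-likelihood fit on group and Benjamini-Hochberg adjustment over all 15367 genes. The SE is that implied by the F statistic. Exon lengths, positions and overlaps came from GENCODE M21 on GRCm38, and identities from BLAST of transcripts; promoter windows are RefSeq's. Alternatives were median-ratio and total-count scaling, 2 other filters, DESeq2 1.42.0, limma-voom 3.58.1, no robust step, a replicate block, a threshold of 0.1 and leaving out each library. The script was tested on simulated data.

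Members, lists and tests were chosen with earlier results of these data known. Values per library are given for called members, up to 3 of each role by smallest p, the most negative enzyme and Pex gene, up to 6 other peroxisomal genes and up to 4 of the PPAR-alpha list; 1 gene met by this rule is not reported here. Phyh, Hacl1, Acaa1b, Mpv17l, Cat, Eci3 and Ppara were added after their values were seen. Pairs of libraries differed by more than sampling noise.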

Additional observations from a re-analysis of the deposited data

How the results depend on the processing

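With 3 libraries a group and a common biological coefficient of variation of 0.217, modest differences can miss the threshold, and a p above it does not show equal levels. The 4 members called higher became 7 with no low-count filter, 12 with DESeq2, 2 with limma-voom, 0 with the replicate block and 10 at a threshold of 0.1, and ranged from 0 to 14 when single libraries were left out. All 4 were among the called members without DHT replicate 2. Members called lower, 0 of 44, became 1 with DESeq2 and ranged from 0 to 2 over the left-out libraries. Over all genes the 437 calls became 852 with no low-count filter, 1634 with DESeq2, 85 with the replicate block and 1528 at a threshold of 0.1, and ranged from 0 to 1224 over the left-out libraries. The cause was not tested. Total-count scaling moved the median gene by -0.105 log2 and gave a Pex median of 0.112. Pex6 reversed to -0.105 with that scaling, to -0.103 without control replicate 1 and to -0.089 without DHT replicate 3. Over the left-out libraries Pex6 ranged from -0.103 to 0.06 and Gnpat from -0.097 to 0.09, the latter without DHT replicate 2, where its direction reversed. The samples share replicate numbers, but same-numbered libraries did not deviate together (correlations of 0.084, -0.163 and 0.053), so the numbers were not taken to pair the samples.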
